A study of Mus musculus with 35 samples.

Results

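The genes described here are 10 classical targets of the transcription factor NRF2 in mouse lung. They are Akr1b8, Nqo1, Gclc, Gclm, Slc7a11, Srxn1, Txnrd1, Gsr, G6pdx and Hmox1. They were taken by symbol, with earlier results of these data known, and they are 10 of the 57186 genes in the count table. All 10 were among the 20606 genes that passed the filter on low counts and were tested. The libraries hold RNA from whole lung of mice with floxed Rora alleles (RORaf/f, here control mice) and of mice that also carry the Il7r Cre (RORaf/fIl7riCre, here KO mice), untreated or 2, 5 or 7 days after naphthalene. Every group therefore carries the floxed alleles, and the deletion is directed to cells that express Il7r or descend from cells that did, not to the lung as a whole. The label of the control mice names no Cre, so loss of RORa and presence of the Cre cannot be told apart. The design text gives the age of the mice as 14 days, without an age for each day label. Each of the 12 groups has 3 libraries, except the KO mice 7 days after naphthalene, which have 2.

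NRF2, encoded by Nfe2l2, is held at a low level by KEAP1, which presents it to a CUL3 ubiquitin ligase. Electrophiles and oxidants modify cysteines of KEAP1, and NRF2 then accumulates, pairs with small MAF proteins and binds antioxidant response elements near its targets. Naphthalene is turned into reactive epoxides by a cytochrome P450 of airway club cells, and conjugation with glutathione is a main route of their removal.

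Library totals ran from 10.7 to 21.1 M counts (M, mega; median 16.2 M). A single read was worth 0.0487 to 0.0886 CPM, the count divided by the scaled library total in M. CPM are compared here for 1 gene between libraries, not between genes. The mean of Rora in whole lung was higher in KO than in control mice in 5 of the 6 pairs of groups with the same day and treatment, and lower in 1, the treated mice of day 5 (35.1 ± 8.70 against 39.4 ± 1.79 CPM, SD, n = 3 each). The ranges overlapped in all 6. Untreated control replicate 1 of day 5 stood apart, with 159 CPM of the microglial gene P2ry12 against at most 3.92 in the other libraries. Together with replicate 2 of its group and untreated control replicate 3 of day 2, it also had the lowest summed alveolar type 2 cell markers, and results that rest on these 3 libraries are given with and without them. The library names carry letters, whose meaning the labels do not give. At days 2 and 5 no letter is shared by treated and untreated libraries, so treatment and letter cannot be told apart, while all libraries of day 7 carry the same letter. Where the labels do not state separate animals, p-values measure only the spread between these libraries.

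The promoter sequences below show where the letters of an antioxidant response element stand near the start sites of members whose transcripts are followed afterwards. RefSeq promoter windows of GRCm38.p6, reaching from 250 bases before to 50 bases after a start site, were held for 7 of the 10 members, with 9 windows in all because Txnrd1 has 3. The core of the element, TGACNNNGC, was searched on both strands, and so was the AP-1 site TGANTCA. The core occurred in 4 windows of 4 members (Gclm, Txnrd1, Srxn1 and G6pdx), against 12.4% of all 32841 windows. In each of these it lies on the strand opposite to the gene, and the capitals mark it. Gclm, the modifier subunit of glutamate-cysteine ligase, holds it at -134 to -126 from the start (GRCm38.p6 chr3:122245393-122245461, plus strand, for the stretch shown).
Gclm: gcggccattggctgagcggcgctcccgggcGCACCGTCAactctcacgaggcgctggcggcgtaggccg
Txnrd1, thioredoxin reductase, holds it at -92 to -84 in 1 of its 3 windows (chr10:82859084-82859152, plus strand).
Txnrd1: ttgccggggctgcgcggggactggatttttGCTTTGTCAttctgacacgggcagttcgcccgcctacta
G6pdx, the X-linked glucose-6-phosphate dehydrogenase, holds it at -57 to -49 (chrX:74428899-74428967, minus strand).
G6pdx: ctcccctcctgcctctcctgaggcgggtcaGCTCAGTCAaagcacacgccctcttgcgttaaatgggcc
Srxn1, sulfiredoxin, holds it after the start site, at 29 to 37 (chr2:152105542-152105570, plus strand).
Srxn1: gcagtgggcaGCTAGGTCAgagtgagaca
The Srxn1 window also holds the AP-1 site at -102 to -96 and at -45 to -39 (chr2:152105392-152105515), a motif that 7.81% of all windows hold. The site at -45 to -39 is followed by gc. With these bases it differs from TGACNNNGC only by a G in place of the C after TGA, so the search for the core did not count it.
Srxn1 AP-1: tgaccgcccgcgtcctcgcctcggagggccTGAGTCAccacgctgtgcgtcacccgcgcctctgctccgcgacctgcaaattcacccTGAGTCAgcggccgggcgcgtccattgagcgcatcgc
Neither motif was found in the windows of Akr1b8, Nqo1 and Slc7a11, which says only that these letters are not there. A match is a description of the sequence, and no binding was measured.

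At day 2 after naphthalene, 4 of the 10 genes rose in each genotype. Akr1b8, Gclc, Srxn1 and Slc7a11 made up the 4 in control mice and also the 4 in KO mice, and none of the 10 fell. In control mice 2.57% of all tested genes were called higher (3.76% in either direction) by edgeR's quasi-likelihood test at an adjusted p below 0.05, and in KO mice 1.99% (2.74% in either direction). The median log2 change of the 10 was 0.43 in control mice and 0.34 in KO mice, beside -0.04 and -0.03 over all genes tested. In control mice all 3 treated libraries lay above all 3 untreated ones for 8 of the 10 genes, and in KO mice for 7, a separation that 10.7% and 9.92% of all tested genes showed. In bulk RNA of a whole organ, a change in the number of cells of a type and a change in RNA per cell cannot be told apart.

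**Figure D1:**
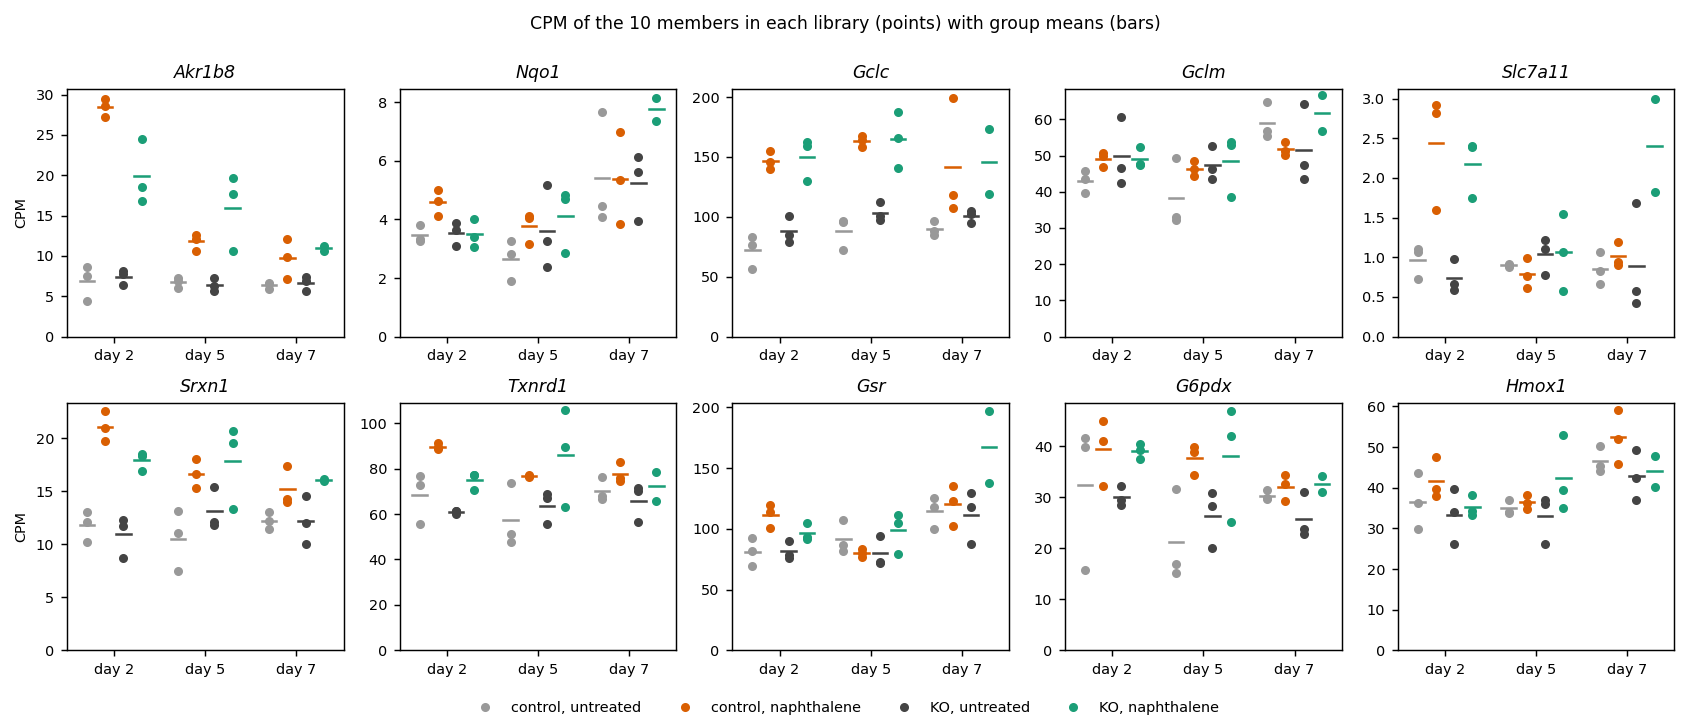
CPM of the 10 genes in each library (points) with the group means (bars), by day label, genotype and treatment; each panel has its own scale, from 0. The treated libraries of Akr1b8 at day 2 lie between 16.8 and 29.4 CPM and all untreated libraries of that gene at or below 8.67.

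Akr1b8, an aldo-keto reductase that reduces reactive aldehydes and ketones, rose most of the 10 in control mice. Its level was 27.2, 28.6 and 29.4 CPM in the treated control mice of day 2 and 8.67, 7.50 and 4.46 CPM in the untreated ones. In KO mice it was 18.5, 16.8 and 24.5 CPM with naphthalene and 6.38, 8.10 and 7.81 CPM without. All treated libraries were therefore above all untreated ones, and the treated control libraries were above all treated KO libraries. The log2 change was 2.04 ± 0.23 (SE) in control mice, a 4.13-fold rise (edgeR, adjusted p = 5.2e-07), and 1.42 ± 0.23 in KO mice, a 2.68-fold rise (adjusted p = 0.000196). The genotype difference between these changes, -0.62 ± 0.32, did not pass the test (95% interval from -1.27 to 0.02, unadjusted p = 0.0571, adjusted p = 1.00). The lowest untreated value, 4.46 CPM, is that of control replicate 3, which is among the 3 libraries with low alveolar type 2 markers. Without these 3 libraries the genotype difference was -0.39 and the log2 change in control mice was 1.83. Akr1b8 was called in all 6 refits that left out 1 library in each genotype. Close relatives of Akr1b8 could share reads with it, and how the authors' counting treated such reads is not given in the sources used here. Its aldose reductase relatives did not pass the test at day 2 in either genotype (Akr1b10 at -0.11 ± 0.17, Akr1b3 at -0.26 ± 0.22 and Akr1b7 at 0.79 ± 0.63 in control mice).

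Nqo1, the quinone reductase that is often used as the reference readout of NRF2, was a low transcript here and did not pass the test at day 2. The treated control libraries held 4.63, 5.00 and 4.12 CPM and the untreated ones 3.80, 3.26 and 3.32 CPM. All treated libraries were above all untreated ones, yet the log2 change of 0.41 ± 0.28 had a 95% interval from -0.17 to 0.98 (edgeR, adjusted p = 0.634). In KO mice the treated libraries (3.05, 4.03 and 3.40 CPM) and the untreated ones (3.63, 3.08 and 3.87 CPM) overlapped, with a log2 change of -0.01 ± 0.29 (adjusted p = 0.993). Over the 35 libraries its reads numbered 27 to 117.

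Gclc encodes the catalytic subunit of glutamate-cysteine ligase, the rate-limiting enzyme of glutathione synthesis, and its transcript rose in both genotypes at day 2. The treated control libraries held 145, 155 and 140 CPM and the untreated ones 76.1, 56.7 and 83.2 CPM. In KO mice the values were 130, 159 and 162 CPM with naphthalene and 101, 79.4 and 84.9 CPM without. Treated and untreated libraries did not overlap in either genotype. The log2 change was 1.03 ± 0.19 in control mice (edgeR, adjusted p = 0.000744) and 0.77 ± 0.19 in KO mice (adjusted p = 0.0177). In KO mice the call was lost without replicate 3 of the treated mice (adjusted p = 0.113) and without replicate 2 (0.122) or 3 (0.0958) of the untreated mice, with log2 changes of 0.71, 0.70 and 0.74. These refits called 1.05%, 1.16% and 1.34% of all genes in either direction, against 2.74% with all libraries.

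Gclm, the modifier subunit of the same enzyme, did not pass the test. Its level was 50.8, 49.8 and 46.8 CPM in treated and 45.7, 43.6 and 39.7 CPM in untreated control mice of day 2, and the log2 change was 0.19 ± 0.17 (edgeR, adjusted p = 0.743). In KO mice it was 47.3, 47.6 and 52.3 CPM with naphthalene and 60.7, 42.5 and 46.6 CPM without, a log2 change of -0.02 ± 0.17 (adjusted p = 0.971). The control groups did not overlap (46.8 against 45.7 CPM at the nearest), and the KO groups did.

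The balance of the ligase subunits was compared within each library as a ratio of reads, which needs no scaling between libraries. This pair was chosen after the values had been seen, so the ratio is a description and no test of it is given. At day 2 there were 2.86, 3.11 and 2.99 Gclc reads per Gclm read in the treated control libraries and 1.67, 1.30 and 2.10 in the untreated ones. In KO mice the ratios were 2.74, 3.34 and 3.10 with naphthalene and 1.66, 1.87 and 1.82 without. No treated library of day 2 had a ratio as low as any untreated one. Averaged over the genotypes the ratio was 1.76-fold higher with naphthalene at day 2, 1.54-fold at day 5 and 1.43-fold at day 7. At day 5 the ranges met closest in control mice, at 3.26 with naphthalene and 2.96 without, the latter in replicate 2 of the untreated mice. At day 7 the KO ranges overlapped, from 2.09 to 2.60 with and from 1.63 to 2.19 without naphthalene. The ratio is of reads and not of molecules, since the transcripts differ in length.

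**Figure D2:**
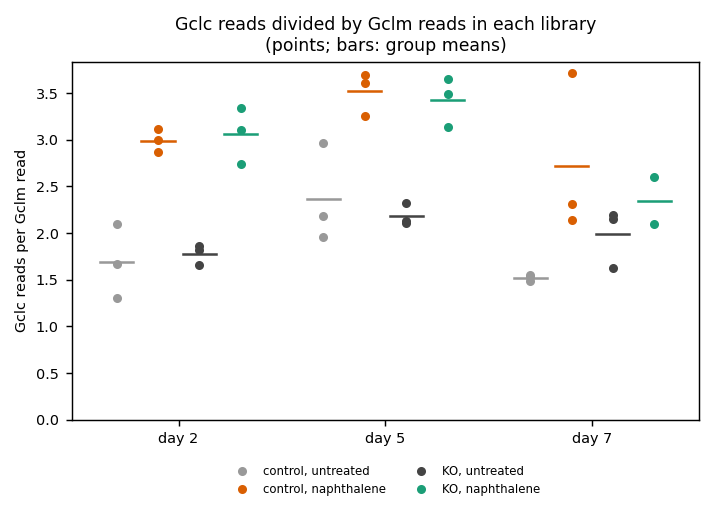
Reads of Gclc divided by reads of Gclm in each library (points) with group means (bars), by day label, genotype and treatment, on an axis from 0. At day 2 the treated libraries lie between 2.74 and 3.34 and the untreated ones between 1.30 and 2.10.

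Slc7a11 encodes the cystine transporter that supplies cysteine for glutathione, and it was the gene with the fewest reads of the 10. The treated control libraries of day 2 held 53, 29 and 46 reads (2.82, 1.59 and 2.92 CPM) and the untreated ones 22, 19 and 14 reads (1.07, 1.11 and 0.726 CPM). In KO mice the values were 36, 29 and 41 reads (2.39, 1.74 and 2.40 CPM) with naphthalene and 11, 12 and 8 reads (0.974, 0.661 and 0.584 CPM) without. Treated and untreated libraries did not overlap in either genotype. The log2 change was 1.33 ± 0.38 in control mice (edgeR, adjusted p = 0.0373) and 1.57 ± 0.40 in KO mice (adjusted p = 0.0265). Both calls were lost in most refits that left out 1 library. In control mice the call was lost when any library except replicate 2 of the treated mice was left out, with log2 changes from 1.17 to 1.44 and adjusted p from 0.07 to 0.169. In KO mice it was lost without replicate 1 (adjusted p = 0.0898) or 3 (0.127) of the treated mice and without replicate 2 (0.147) or 3 (0.156) of the untreated mice, at log2 changes of 1.44 or more. The refits without the call in control mice called 2.27% to 3.76% of all genes in either direction, against 3.76% with all libraries. Those in KO mice called 1.05% to 1.55%, against 2.74%. Averaged over the genotypes, which called 4 of the 10 genes higher at day 2 beside 5.6% of all genes (9.9% in either direction), the log2 change was 1.45 ± 0.28 (adjusted p = 0.000445), and this was called in all 12 refits. Slc3a2, the heavy chain with which the transporter pairs, was not called (0.19 ± 0.18 in control and 0.33 ± 0.18 in KO mice).

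Srxn1 reduces overoxidised peroxiredoxins, the enzymes that break down hydrogen peroxide. Its level was 22.6, 20.98 and 19.7 CPM in treated and 12.1, 13.1 and 10.3 CPM in untreated control mice of day 2. In KO mice it was 16.97, 18.5 and 18.3 CPM with naphthalene and 11.8, 12.3 and 8.76 CPM without. The groups did not overlap in either genotype. Srxn1 rose by 0.84 ± 0.19 on the log2 scale in control mice (edgeR, adjusted p = 0.0072) and by 0.71 ± 0.19 in KO mice (adjusted p = 0.0395). In KO mice the call was lost without replicate 1 (adjusted p = 0.0774), 2 (0.0734) or 3 (0.156) of the treated mice and without replicate 2 (0.0711) or 3 (0.27) of the untreated mice, with log2 changes from 0.57 to 0.81. In that order, these refits called 1.55%, 3.68%, 1.05%, 1.16% and 1.34% of all genes in either direction, against 2.74% with all libraries. In control mice Srxn1 was called in all 6 refits.

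The remaining thiol and NADPH enzymes and the haem oxygenase did not pass the test at day 2. Txnrd1, which keeps thioredoxin reduced, held 91.1, 88.4 and 89.4 CPM in treated and 73.0, 77.0 and 55.7 CPM in untreated control mice, without overlap, and its log2 change was 0.39 ± 0.16 (edgeR, adjusted p = 0.251). In KO mice Txnrd1 also separated, at 70.6, 77.1 and 77.3 CPM against 61.3, 61.3 and 59.9 CPM, with a log2 change of 0.30 ± 0.16 (adjusted p = 0.391). Gsr, which returns oxidised glutathione to its reduced form, was at 0.46 ± 0.17 (adjusted p = 0.164) in control and 0.25 ± 0.17 (adjusted p = 0.538) in KO mice, and its treated libraries lay above the untreated ones in both. G6pdx, which makes NADPH at the entry of the pentose phosphate pathway, was at 0.28 ± 0.26 and 0.38 ± 0.26 (adjusted p = 0.768 and 0.537). Hmox1, the inducible haem oxygenase, was at 0.19 ± 0.17 and 0.08 ± 0.18 (adjusted p = 0.77 and 0.885), and its treated libraries (33.3 to 47.6 CPM over both genotypes) overlapped the untreated ones (26.03 to 43.6 CPM).

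**Figure D3:**
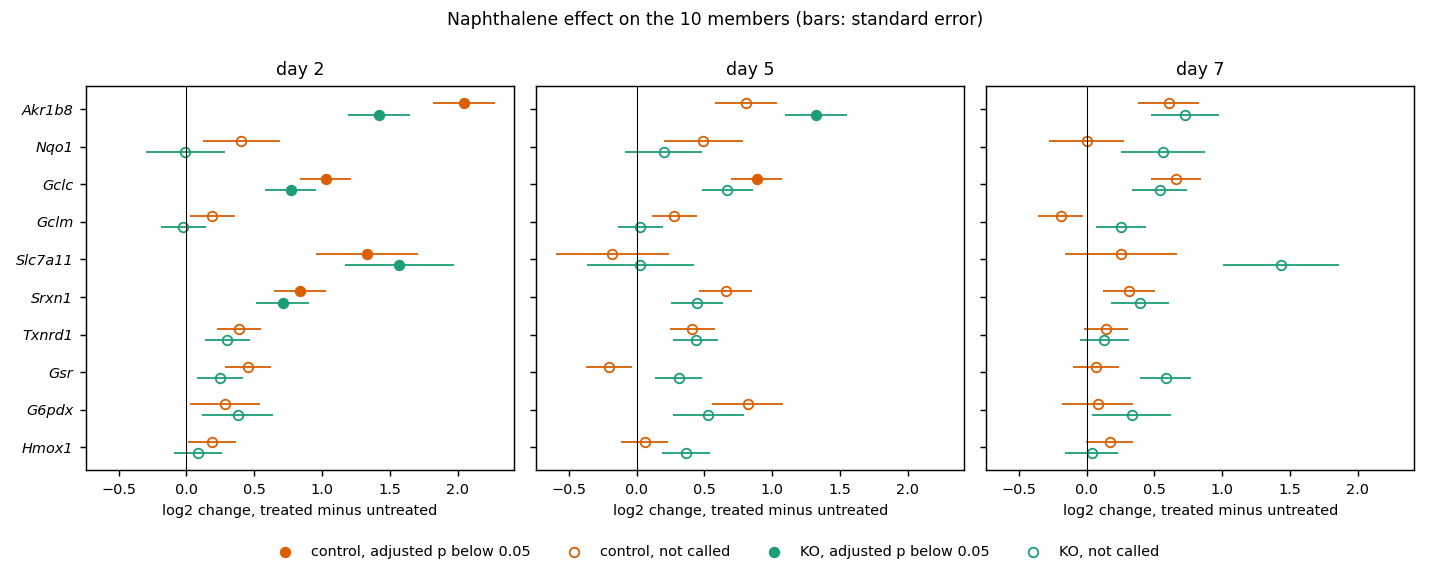
Log2 change of each of the 10 genes, treated minus untreated, at each day in control (orange) and KO (green) mice; bars are standard errors and filled points passed the test. Filled points are Akr1b8, Gclc, Slc7a11 and Srxn1 at day 2 in both genotypes, Gclc in control and Akr1b8 in KO mice at day 5, and none at day 7.

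At day 5, 1 of the 10 genes was called in each genotype, Gclc in control mice and Akr1b8 in KO mice, both higher. The share of all tested genes called higher was 1.1% in control mice (2.39% in either direction) and 1.14% in KO mice (1.32% in either direction). The median log2 change of the 10 was 0.45 in control and 0.40 in KO mice, beside -0.01 over all genes in both. All treated libraries lay above all untreated ones for 5 of the 10 genes in control mice (13.5% of all genes) and for 2 in KO mice (5.81%). Gclc held 164, 158 and 167 CPM in the treated control libraries and 72.2, 95.4 and 96.9 CPM in the untreated ones, without overlap, a log2 change of 0.89 ± 0.19 (edgeR, adjusted p = 0.0133). Without replicate 3 of the treated control mice the adjusted p of Gclc was 0.0501, and without replicate 1 of the untreated ones, the library with high P2ry12, it was 0.151 at a log2 change of 0.77. These refits called 0.461% and 0.112% of all genes in either direction, against 2.39% with all libraries, so calls fell over the whole table. In KO mice Gclc was 141, 166 and 187 CPM against 112, 97.7 and 101 CPM, also without overlap, at 0.67 ± 0.19 (adjusted p = 0.0656). Akr1b8 held 10.6, 19.7 and 17.7 CPM in treated and 5.66, 7.21 and 6.28 CPM in untreated KO mice, a log2 change of 1.32 ± 0.23 (adjusted p = 0.00118) that was called in all 6 refits. In control mice Akr1b8 was 12.6, 12.1 and 10.6 CPM against 7.20, 6.04 and 6.93 CPM, without overlap, at 0.81 ± 0.23 and just outside the threshold (adjusted p = 0.0504).

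The other genes with separated groups in control mice at day 5 were Srxn1, Txnrd1 and G6pdx. Srxn1 held 18.03, 15.3 and 16.6 CPM with naphthalene and 11.1, 7.45 and 13.1 CPM without (0.66 ± 0.19, edgeR adjusted p = 0.06). Txnrd1 held 77.3, 76.6 and 76.1 CPM against 47.8, 51.2 and 73.7 CPM (0.41 ± 0.16, adjusted p = 0.13), and G6pdx 38.9, 39.8 and 34.3 CPM against 17.02, 15.2 and 31.6 CPM (0.82 ± 0.26, adjusted p = 0.0772). For each of them replicate 3 was the highest untreated library, and the gap to the lowest treated library was small. The treated and untreated KO libraries overlapped, with replicate 1 of the treated mice low for each (13.4 CPM of Srxn1, 63.0 of Txnrd1 and 25.3 of G6pdx, against 19.6 to 20.7, 89.5 to 106 and 42.1 to 46.9 CPM in the other treated libraries). The log2 changes there were 0.45 ± 0.19, 0.44 ± 0.16 and 0.53 ± 0.26 (adjusted p = 0.328, 0.247 and 0.394).

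Nqo1, Gclm, Gsr and Hmox1 did not pass the test at day 5 and their groups overlapped in both genotypes. The changes of Gsr had opposite signs in the genotypes, at -0.20 ± 0.17 in control mice (edgeR, adjusted p = 0.477) and 0.31 ± 0.17 in KO mice (adjusted p = 0.448), and the difference between them, 0.51 ± 0.24, did not pass the test (adjusted p = 0.545). Nqo1 was at 0.49 ± 0.29 and 0.20 ± 0.28, Gclm at 0.28 ± 0.17 and 0.03 ± 0.17, and Hmox1 at 0.06 ± 0.17 and 0.36 ± 0.17, in control and KO mice in that order.

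Slc7a11 was not called at day 5, and its treated and untreated libraries overlapped in both genotypes. The treated control libraries held 0.759, 0.607 and 0.996 CPM and the untreated ones 0.873, 0.913 and 0.907 CPM, and the log2 change was -0.18 ± 0.42 (edgeR, adjusted p = 0.826). In KO mice it was 0.03 ± 0.40 (adjusted p = 0.983).

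The average over the genotypes has 6 libraries a side at day 5 and called 5 of the 10 genes higher, beside 4.34% of all tested genes (7.16% in either direction). Akr1b8 was at 1.07 ± 0.16 (edgeR, adjusted p = 7.17e-05), Gclc at 0.78 ± 0.13 (0.000351) and Srxn1 at 0.55 ± 0.14 (0.0123), each in all 12 refits. G6pdx was at 0.67 ± 0.19 (adjusted p = 0.0254) and Txnrd1 at 0.42 ± 0.12 (adjusted p = 0.0243). Both of these calls were lost in some refits that left out 1 library. The call of Txnrd1 was lost without replicate 1 or 2 of the untreated control mice, replicate 2 of the untreated KO mice or replicate 2 or 3 of the treated KO mice (adjusted p from 0.0582 to 0.114). The call of G6pdx was lost without the same 5 libraries and also without replicate 1 or 2 of the treated control mice (adjusted p from 0.0525 to 0.0987). These 7 refits called 2.73% to 4.14% of all genes in either direction, against 7.16% with all libraries. Replicate 1 of the treated KO mice was the lowest of its group for 9 of the 10 genes, and without it Gclc (adjusted p = 0.0213) and Txnrd1 (0.0242) were called in KO mice as well, in a refit that called 4.38% of all genes in either direction. Without replicate 3 of the untreated control mice, 5 further genes were called in control mice, Gclm, Txnrd1, Srxn1, Akr1b8 and G6pdx (adjusted p from 0.00625 to 0.0313). That refit called 17.2% of all genes in either direction, against 2.39% with the library, so calls rose over the whole table.

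Part of these day 5 results rested on the 3 libraries with low alveolar type 2 markers, since 2 of them are untreated control libraries of day 5. They were left out together in a refit added after the values had been seen, in which the lone untreated control library of day 5 was assumed to vary like the other groups. No member was then called in control mice at day 5 (Gclc at 0.73, edgeR adjusted p = 0.959), and 3 genes were called in all (0.0146%). Averaged over the genotypes at day 5, 2 members were called, Akr1b8 (1.03, adjusted p = 0.00296) and Gclc (0.70, adjusted p = 0.0213), beside 1.42% of all genes in either direction. Srxn1 (0.39, adjusted p = 0.285), G6pdx (0.38, adjusted p = 0.321) and Txnrd1 (0.24, adjusted p = 0.48) were not. The day 2 average still called Akr1b8 (1.63), Gclc (0.98), Srxn1 (0.75) and Slc7a11 (1.38), with adjusted p from 2.58e-08 to 0.00199, beside 9.56% of all genes. In control mice at day 2 Slc7a11 was not called (1.17, adjusted p = 0.138) and G6pdx was at -0.03.

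G6pdx had its 3 lowest values in these libraries, 15.7, 17.02 and 15.2 CPM, and 20.1 to 46.9 CPM in all others. Their summed alveolar type 2 markers were 7994 to 9807 CPM, against 13664 to 33721 CPM elsewhere. The part of these cells in the level of G6pdx was not tested.

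**Figure D4:**
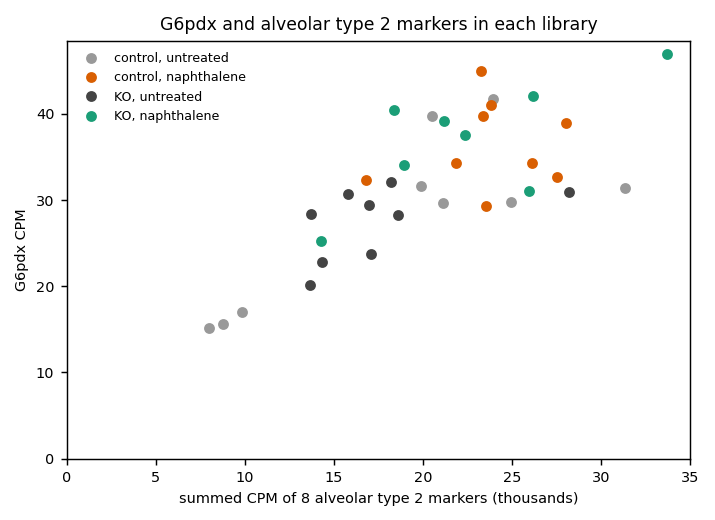
CPM of G6pdx against the summed CPM of 8 alveolar type 2 cell markers in each of the 35 libraries, coloured by genotype and treatment, on axes from 0. The 3 libraries lowest on both axes are untreated control libraries, at 15.2 to 17.02 CPM of G6pdx.

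At day 7 none of the 10 genes was called in either genotype by edgeR. At an unadjusted p below 0.05 there were 2 in control mice (Gclc and Akr1b8) and 4 in KO mice (Slc7a11, Gsr, Akr1b8 and Gclc), and DESeq2 called none of the 10 in either. Few genes were called at all at that day, 0.0388% in control and 0.0728% in KO mice in either direction. Akr1b8 still held 7.13, 9.82 and 12.1 CPM in treated and 5.90, 6.56 and 6.66 CPM in untreated control mice, without overlap, a log2 change of 0.60 ± 0.23 (edgeR, adjusted p = 1.00). Gclc held 107, 119 and 200 CPM against 84.8, 96.5 and 88.0 CPM, with replicate 3 of the treated mice far above the others, and its log2 change was 0.66 ± 0.19 (adjusted p = 0.547). In control mice 3 genes separated upward (Akr1b8, Gclc and Srxn1) and Gclm separated downward, beside 5.43% and 3.01% of all genes. In KO mice, with 2 treated libraries, 7 genes separated upward beside 8.9% of all genes. Slc7a11 had 2.99 and 1.82 CPM in these 2 libraries and 0.576, 1.69 and 0.424 CPM in the untreated ones, at 1.43 ± 0.43 (adjusted p = 0.338). Gsr held 197 and 138 CPM against 87.7, 130 and 118 CPM (0.58 ± 0.19, adjusted p = 0.436), and Nqo1 8.14 and 7.38 CPM against 3.96, 6.15 and 5.63 CPM (0.56 ± 0.31, adjusted p = 0.829). Without replicate 2 of the untreated KO mice, the high one, Slc7a11 was at 2.27 with an adjusted p of 0.0369, in a refit that called 0.0582% of all genes. Replicate 1 of these treated KO mice, the library with the higher Slc7a11, Gsr and Nqo1, also had the highest summed neutrophil markers of all 35 libraries (633 CPM), while replicate 2 had 115 CPM and the untreated KO libraries 118 to 150 CPM. All 8 neutrophil markers were above 0 in this comparison (median log2 change 1.66 beside -0.01 over all genes). edgeR called none of them, 7 were below an unadjusted p of 0.05 and DESeq2 called 1. Their part in the values of Slc7a11 and Gsr was not tested. Averaged over the genotypes Gclc alone was called, at 0.60 ± 0.14 (adjusted p = 0.0406), beside 0.335% of all genes called higher (0.374% in either direction). That call was lost in 8 of 11 refits, which left out replicate 3 of the treated control mice (log2 change 0.44), replicate 2 of the treated KO mice (0.45) or any of the 6 untreated libraries of day 7 (0.58 to 0.63), with adjusted p from 0.0726 to 0.342. Those refits called 0.165% to 0.32% of all genes in either direction, against 0.374% with all libraries. Without replicate 1 of the treated control mice Akr1b8 was called (0.76, adjusted p = 0.0409), beside 0.345% of all genes.

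The effects were also compared between days, over both genotypes. Akr1b8 had the only difference that passed the test, with an effect at day 7 below that at day 2 by -1.07 ± 0.23 on the log2 scale (edgeR, adjusted p = 0.0163), in all 23 refits, while 0.553% of all genes were called in that direction and 1.01% in either. From day 2 to day 5 no member was called by edgeR, 2 were below an unadjusted p of 0.05 (Slc7a11 and Akr1b8) and DESeq2 called 1, and 0.67% of all genes were called in either direction. The difference of Slc7a11 was -1.53 ± 0.40 (adjusted p = 0.0645), and it was called when any of 4 libraries was left out, replicate 2 of the treated KO mice of day 2, replicate 1 of the treated KO mice of day 5, untreated control replicate 3 of day 2 or untreated KO replicate 1 of day 2 (adjusted p from 0.0343 to 0.0497), refits that called 0.917% to 2.68% of all genes. The effect on Gclc changed least among the 4 genes called at day 2, by -0.12 ± 0.19 from day 2 to day 5 (adjusted p = 0.814) and by -0.30 ± 0.19 to day 7 (adjusted p = 0.621). These day comparisons share the day 2 libraries. At days 2 and 5 treatment and library letter cannot be told apart, while all libraries of day 7 carry the same letter. In the differences between day 7 and day 2, day and letter therefore cannot be told apart.

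**Figure D5:**
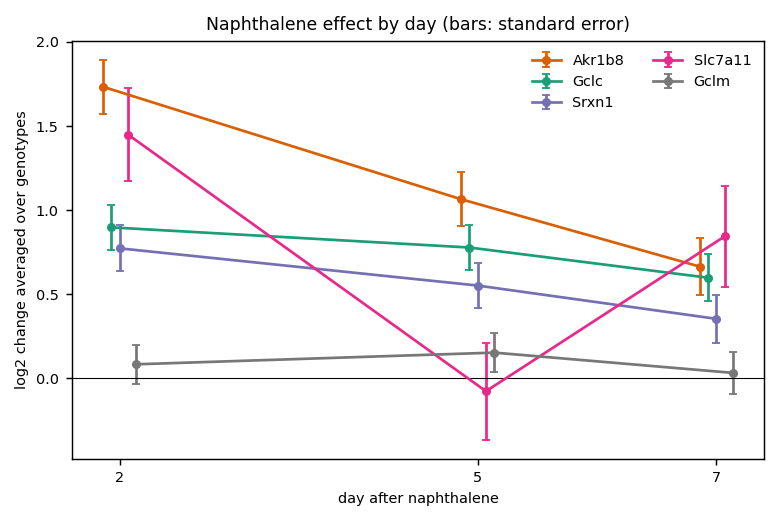
Log2 change averaged over genotypes (treated minus untreated) of Akr1b8, Gclc, Srxn1, Slc7a11 and Gclm at days 2, 5 and 7; bars are standard errors. Akr1b8 goes from 1.73 to 1.07 and 0.67, Gclc from 0.90 to 0.78 and 0.60, and Slc7a11 from 1.45 to -0.08 and 0.84.

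Genotype made no difference that passed the test. For the genotype difference in the naphthalene effect, edgeR called none of the 10 genes and none of the 20606 (0%) at day 2, 5 or 7, with 0, 1 and 0 members below an unadjusted p of 0.05, and DESeq2 called none of the 10. The member at day 5 was Gsr, at 0.51 ± 0.24 (adjusted p = 0.545), with treated libraries of 79.8, 83.1 and 76.5 CPM in control mice and 79.6, 112 and 105 CPM in KO mice. The intervals remain wide for the low transcripts. At day 7 the difference for Slc7a11 was 1.18 ± 0.60 (95% interval from -0.04 to 2.39). Averaged over days, KO minus control called none of the 10 and none of all genes (0%) in untreated or in treated mice, with 1 member each below an unadjusted p of 0.05. These were Gclc in untreated mice (0.23 ± 0.11, adjusted p = 0.581) and Slc7a11 in treated mice (0.50 ± 0.23, adjusted p = 0.833). DESeq2 again called none of the 10.

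In untreated mice, 2 of the 10 genes were higher at the day 7 label than at the day 2 label, Gsr and Nqo1. This stood beside 6.06% of all genes called higher and 13.8% called in either direction. Gsr held 118, 126 and 99.7 CPM in untreated control and 87.7, 130 and 118 CPM in untreated KO mice of day 7, against 69.8 to 92.4 CPM in the 6 untreated libraries of day 2, with 1 overlapping library. The log2 difference was 0.48 ± 0.12 (edgeR, adjusted p = 0.00831), called in all 12 refits. Nqo1 rose by 0.61 ± 0.20 (adjusted p = 0.041), a call that was lost in 8 of 12 refits (adjusted p from 0.0552 to 0.155), those without replicate 1, 2 or 3 of the control or 1 or 2 of the KO mice of day 2, replicate 2 of the control mice or replicate 2 or 3 of the KO mice of day 7. Over the 12 refits 1721 to 3312 of all genes were called in either direction, against 2835 with all libraries. Hmox1 was at 0.36 ± 0.12 (adjusted p = 0.0505). From day 2 to day 5 none was called by edgeR (1 below an unadjusted p of 0.05, G6pdx at -0.39 ± 0.19) and none by DESeq2, while 0.476% of all genes were called in either direction. Other genes moved with these members from day 2 to day 7. Of 29 other NRF2 targets tested, 13 were higher and 1 lower, with a median log2 difference of 0.43 beside 0.00 over all genes. All 6 red blood cell markers were higher (median 2.12) and so were 6 of 8 club cell markers (median 0.61), and the part of these cells in Gsr and Nqo1 was not tested. The libraries of day 7 and of day 2 carry different letters, so day and letter cannot be told apart here.

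The regulators of the pathway did not pass the test in any of the 6 comparisons by genotype and day. At day 2 in control mice Nfe2l2 itself was at 0.22 ± 0.18, its inhibitor Keap1 at 0.07 ± 0.15 and the ligase parts Cul3 and Rbx1 at 0.29 ± 0.20 and -0.08 ± 0.12 on the log2 scale. The repressor Bach1 was at 0.05 ± 0.20. The small MAF partners Maff, Mafg and Mafk were at 0.47 ± 0.31, -0.14 ± 0.17 and 0.04 ± 0.24. Sqstm1, which binds KEAP1, was at 0.20 ± 0.20, and the related factor Nfe2l1 at 0.02 ± 0.21. Over the 6 comparisons edgeR called 0 of 10 each time, 1 of the 60 values had an unadjusted p below 0.05 (Rbx1 at day 2 in KO mice), and the log2 changes ran from -0.35 to 0.47. DESeq2 called none either. The NRF2 protein, on which KEAP1 acts, was not measured.

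Of 30 other NRF2 targets, 29 were tested. In control mice at day 2, 3 rose (Gpx2, Adh7 and Me1), 1 fell (Gsta2) and 25 were not called, with a median log2 change of 0.10 beside -0.04 over all genes. In KO mice 1 rose (Gpx2) and none fell, with a median of -0.01. Over all genes 3.76% were called in either direction in control and 2.74% in KO mice. Of the 29, 9 in control and 8 in KO mice were below an unadjusted p of 0.05, and DESeq2 called 6 and 2. Averaged over the genotypes, edgeR called 7 at day 2, 8 at day 5 and 0 at day 7, and DESeq2 called 9, 10 and 0. Over all genes edgeR called 9.9%, 7.16% and 0.374% in these averages in either direction. Gpx2, an epithelial glutathione peroxidase, went from 5.42 ± 0.353 to 23.2 ± 3.49 CPM in control mice (SD, n = 3), a log2 change of 2.09 ± 0.29 (edgeR, adjusted p = 1.81e-05), and in KO mice it went from 4.56 ± 1.05 to 14.3 ± 3.24 CPM (1.64 ± 0.29, adjusted p = 0.000745). Gsta2, a glutathione transferase, fell by 2.03 ± 0.54 in control mice (adjusted p = 0.0238), from 1.33 ± 0.116 to 0.313 ± 0.165 CPM, and it has a near-identical copy in Gsta1, which did not pass the filter, so its reads are uncertain. The ferritin chains Fth1 and Ftl1, the members of that list with the highest mean CPM, were at 0.53 ± 0.22 (adjusted p = 0.23) and 0.10 ± 0.30 (adjusted p = 0.964), and both have pseudogenes that could share their reads. They also have the highest mean CPM among 10 genes of haem and iron handling, of which edgeR and DESeq2 called none at day 2 in either genotype, with 1 in each below an unadjusted p of 0.05.

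Among 18 other genes of glutathione and thioredoxin metabolism, 2 rose at day 2 in control mice (Gpx3 and Ggt1) and 1 in KO mice (Ggt5), and none fell. Without the 3 libraries with low alveolar type 2 markers the count in control mice was 1. Of all genes, 2.57% were called higher in control and 1.99% in KO mice. At an unadjusted p below 0.05 there were 5 of the 18 in control and 4 in KO mice, and DESeq2 called 2 in each. Averaged over the genotypes at day 2, edgeR and DESeq2 each called 4 of the 18. Gpx3, the secreted glutathione peroxidase, went from 1084 ± 176 to 2009 ± 141 CPM in control mice, a log2 change of 0.89 ± 0.22 (edgeR, adjusted p = 0.0134). Ggt5, which cleaves glutathione conjugates outside the cell, rose by 1.25 ± 0.29 in KO mice (adjusted p = 0.0121). Txnip, the thioredoxin inhibitor and the list's second most abundant transcript by CPM, was at 0.54 ± 0.26 in control and 0.27 ± 0.26 in KO mice and not called. Slc7a11 is also a target of ATF4, the factor of the amino acid stress response. Of 15 genes of an ATF4 list, edgeR called none at day 2 in either genotype, with 2 in control and 3 in KO mice below an unadjusted p of 0.05, and DESeq2 called none in control and 1 in KO mice. Averaged over the genotypes at day 2, edgeR called 2 of the 15 and DESeq2 4, with 6 below an unadjusted p of 0.05. Over all genes edgeR called 9.9% in that average in either direction. Atf4 itself was at -0.32 ± 0.16 in control and -0.49 ± 0.16 in KO mice (adjusted p = 0.374 and 0.0901).

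Markers of several cell types moved at day 2, when edgeR called 3.76% of all genes in control and 2.74% in KO mice in either direction. Of 8 club cell markers, 6 fell in each genotype at day 2, and their summed level was 2043 to 3354 CPM in treated and 9014 to 10883 CPM in untreated control mice. Scgb1a1, the club cell secretoglobin, fell by 3.60 ± 0.29 on the log2 scale in control mice (edgeR, adjusted p = 1.21e-09), while Cbr2, second in CPM, was at -0.35 ± 0.24 and not called. Of 8 ciliated cell markers, 6 rose in control and 3 in KO mice, led by Cfap126 (1.54 ± 0.18 in control mice, adjusted p = 2.04e-06), and Foxj1 rose in both while the more abundant Tppp3 was at 0.02 ± 0.21. Of 10 macrophage markers, Chil3 alone rose, in each genotype, from 58.5 ± 17.5 to 330 ± 78.9 CPM in control mice. Only 4 of the 10 were above 0 in control mice (median log2 change -0.20 beside -0.04 over all genes) and 7 in KO mice (median 0.39), and Csf1r, second in CPM, was at -0.38 ± 0.17 in control mice. Of 8 neutrophil markers, edgeR called Ltf and Retnlg higher in control and Cxcr2 in KO mice, while S100a9 (1.01 ± 0.55 in control mice) and Csf3r (0.40 ± 0.36), highest in CPM, were not called. The neutrophil sums were 412 to 561 and 99.1 to 360 CPM in treated and untreated control mice. Vwf of 6 endothelial markers rose in both genotypes and Dcn of 6 fibroblast markers in control mice, with Cdh5, Cldn5, Col3a1 and Col1a1, highest in CPM, not called. Of 6 red blood cell markers, Slc4a1 (-3.63 ± 0.51) and Hbb-bt fell in control mice, where 5 were below an unadjusted p of 0.05. In KO mice edgeR called none of the 6 (1 below an unadjusted p of 0.05). Hbb-bs and Hba-a1, highest in CPM, were not called. Of 8 alveolar type 2 markers, Sftpc and Sftpb highest in CPM, edgeR and DESeq2 called none in either genotype and 0 were below an unadjusted p of 0.05. Of 7 alveolar type 1 markers, Ager and Cav1 highest, edgeR called none, with 1 in control and 0 in KO mice below an unadjusted p of 0.05. Without the 3 libraries with low alveolar type 2 markers, 1 neutrophil marker was called higher in control mice. By day 5 the neutrophil sums of treated control mice were 109 to 152 CPM, within the untreated range of 140 to 214 or below it. The macrophage sums of treated control mice (477 to 574 CPM) lay within the untreated range (346 to 959 CPM), whose highest value is that of the library with high P2ry12. The other untreated control libraries, at 346 and 450 CPM, lay below all treated ones. Of the 10 markers, edgeR called 0 in control mice and DESeq2 3 in either direction, with 7 below an unadjusted p of 0.05. Over all genes edgeR called 2.39% there and DESeq2 7.46%. In KO mice the macrophage sums did not overlap (501 to 944 CPM with and 341 to 410 CPM without naphthalene), all 10 macrophage markers were above 0 (median log2 change 0.54 beside -0.01 over all genes), and Chil3 alone was called. The alveolar type 2 sums of day 5 were 21864 to 28041 CPM in treated and 7994 to 19897 CPM in untreated control mice. In KO mice they were 14261 to 33721 and 13664 to 18611 CPM, with overlap. Averaged over the genotypes at day 5, edgeR called 4 of the 8 markers and DESeq2 5, with 7 below an unadjusted p of 0.05. Over all genes edgeR called 7.16% there in either direction. The part of these cell types in the changes of the 10 genes was not tested.

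Over the 35 libraries, 44 of the 45 pairs of the 10 genes had a Pearson r above 0 (median 0.36, lowest -0.05), which includes the differences between groups. Over the residuals of the 35 libraries from their group means, the pairs had r from -0.45 to 0.81 with a median of 0.22, and 32 of them were above 0. The closest pair was Txnrd1 and G6pdx (0.81), followed by Txnrd1 and Srxn1 (0.70), and the most opposed were Gclc and Hmox1 (-0.45). The points share library, depth and scaling, so these are descriptions. The genes most like the mean of the 10 over the 35 libraries, each gene first set to mean 0 and SD 1, were Ttc9 (r = 0.93), Tspan1 (0.92), Eppk1 (0.92), Rfk (0.91), Gsto1 (0.90) and F2rl1 (0.90), out of 11629 genes with at least 5 CPM. Within groups, the most alike were Tgfbr2 (0.89), Cdh1 (0.88), Atp5f1a (0.87), Scd2 (0.86), Rfk (0.86) and St3gal5 (0.86), of which Rfk alone is in both sets.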

How the data were processed

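Whole lung RNA of 35 mouse libraries in 12 groups was measured by RNA sequencing, with a Trizol extraction and a Watchmaker mRNA kit per the labels' protocols. The table deposited by the authors holds raw counts per gene, whole numbers with totals that differ between libraries. GRCm39 and DESeq2 are named without a role, per the submitters' processing notes, while the aligner, counting program, strand setting and annotation were not given in the sources used here. Columns were matched to samples through the library names in the labels, and no 2 columns were identical (0 pairs).

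The analysis ran in R 4.3.3 and used edgeR 4.0.16 and DESeq2 1.42.0. Genes were filtered with filterByExpr over the groups (minimum count 10, minimum total 15), scaled by TMM and fitted as 12 group means by the robust quasi-likelihood method (23 residual degrees of freedom, common biological coefficient of variation 0.222). The 18 comparisons were contrasts of these means, with two-sided tests and Benjamini-Hochberg adjustment over 20606 genes at a threshold of 0.05. The SE of a log2 change was taken from the change and its F statistic, and CPM used the TMM-scaled totals.

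Alternatives were DESeq2, RLE size factors, no filter, a replicate block, the compared groups only, and each library left out in turn. The members, the gene lists and the tests were chosen with earlier results of these data known. All members and all regulators are named in the text. Of each other list, the called gene with the smallest p in each direction at day 2 and the 2 genes with the highest mean CPM are named, and Adh7, Me1, Ggt1, Akr1b7, Retnlg and Hbb-bt besides these were named after their values were seen.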

Additional observations from a re-analysis of the deposited data

Results flagged for a closer look

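The naphthalene effect on Akr1b8 differed between days when the difference itself was tested, with the day 7 effect below the day 2 effect by -1.07 ± 0.23 on the log2 scale (edgeR, adjusted p = 0.0163). The effects averaged over the genotypes were 1.73 at day 2 and 0.67 at day 7. Treated and untreated libraries carry different letters at day 2 and the same letter at day 7, so day and letter cannot be told apart here.

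In control mice, Gclm lay above all untreated libraries in all 3 treated libraries of day 2 (log2 change 0.19) and below all untreated libraries in all 3 treated libraries of day 7 (log2 change -0.19). Of all tested genes in control mice, 10.7% separated upward at day 2 and 3.01% downward at day 7. The difference of Gclm between these days was not tested within control mice. Neither change was called, with adjusted p = 0.743 and 1.00.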

How the results depend on the processing

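Of 108 results for single genes, 97 kept their direction and their side of the threshold with DESeq2, 102 with RLE size factors, 99 without a filter, 94 when only the compared groups were fitted and 107 with a replicate block. The count of the 10 genes called at day 5 in control mice, 1 in the report, was 4 with DESeq2, 2 with RLE size factors, 3 without a filter, and 0 with the compared groups only or without the 3 libraries of low alveolar type 2 markers. The count over all genes moved from 492 to 1329, 494, 2118, 29 and 3 in these settings. In KO mice at day 5, also 1 in the report, it was 2 with DESeq2, RLE size factors or no filter and 0 with the compared groups only (all genes 272 in the report, and 449, 296, 635 and 32). For the averages over genotypes it was 2 at day 5 with the compared groups only and 2 without the 3 libraries (5 in the report; all genes 625 and 292 against 1476), and at day 7 it was 2 with DESeq2 and 0 with the compared groups only (1 in the report; all genes 132 and 40 against 77). From day 2 to day 5 of the effect it was 1 with DESeq2 or no filter (0 in the report; all genes 391 and 695 against 138). In untreated mice of day 7 against day 2 it was 1 without a filter, with the compared groups only or without the 3 libraries (2 in the report; all genes 2898, 1414 and 2571 against 2835), and in KO mice at day 2 it was 2 with the compared groups only (4 in the report; all genes 264 against 565). The fits of the compared groups only have fewer samples, and otherwise the cause was not tested. Leaving out 1 library in turn also moved the calls over all genes, from 23 to 3545 at day 5 in control mice, and gave 3 to 4 genes called at day 2 in control mice, 1 to 4 in KO mice, 0 to 6 and 1 to 3 at day 5, 0 and 0 to 1 at day 7, 4 to 6, 3 to 5 and 0 to 2 for the averages at days 2, 5 and 7, 0 to 1 and 1 for the effects of days 5 and 7 against day 2, 0 and 1 to 2 for untreated mice of days 5 and 7 against day 2, and 0 for all genotype comparisons. The log2 difference of the Gclc to Gclm ratio ran from 0.73 to 0.90 at day 2, from 0.56 to 0.70 at day 5 and from 0.39 to 0.60 at day 7. Signs reversed only for results not called in the report. Nqo1 at day 2 in KO mice (-0.0091) became 0.0041 with DESeq2, 0.0021 with RLE size factors, 0.016 without a filter and 0.0058 with the compared groups only. Nqo1 at day 7 in control mice (0.00093) became -0.0046 with DESeq2, -0.0058 with RLE size factors and -0.027 with the compared groups only. Gclm at day 2 in KO mice became 0.0030 without a filter. Without the 3 libraries, G6pdx at day 2 was -0.031 and Gclm and Hmox1 at day 5 were -0.11 and -0.036 in control mice, and Gclm in the day 5 average was -0.040. With 1 library left out, ranges that crossed 0 were, in control mice, -0.041 to 0.52 for G6pdx at day 2, and -0.22 to 0.33 for Nqo1 and -0.043 to 0.18 for Gsr at day 7. In KO mice they were -0.12 to 0.078 for Nqo1, -0.13 to 0.16 for Gclm and -0.044 to 0.23 for Hmox1 at day 2, -0.027 to 0.55 for Nqo1, -0.059 to 0.18 for Gclm and -0.32 to 0.33 for Slc7a11 at day 5, and -0.091 to 0.17 for Hmox1 at day 7. In the averages they were -0.24 to 0.082 for Slc7a11 at day 5 and -0.023 to 0.12 for Gclm at day 7. Replicate numbers are shared between groups, but same-numbered libraries did not deviate together (correlations from -0.30 to 0.16 over 17 pairs, 3 of them above 0.1). With the replicate block the counts of members called equalled those of the report except in untreated mice of day 7 against day 2, where it was 3. Depth limits Slc7a11 most, with 7 to 53 reads a library.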
